A study of Mus musculus with 8 samples.

Results

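The comparison set 2 libraries of mouse embryonic fibroblasts (MEFs) treated with LY-364947 against 2 libraries treated with carbidopa, 4 of the 8 libraries of the series, chosen by their sample labels alone. MEFs are fibroblasts taken straight from embryonic tissue and grown for a few passages. In this study they came from wild-type C57BL/6J embryos, and both compounds were tested there, beside CHIR-99021, as single molecules proposed by a computational screen for turning fibroblasts toward liver cells. Untreated MEFs (2 libraries) and MEFs with CHIR-99021 (2 libraries) are given only for scale. Each compound was used at 10 µM, and no deletion, transgene or other agent was named for any group. The labels spell the compound LY-364747, and the paper's spelling, LY-364947, is used here. They call the treated cells hepatic-like, and the time of treatment before sequencing is not given in the sources used here. Nor do they say whether the 2 libraries of a group came from separate embryos or cultures, so the p-values measure only the spread between these libraries.

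The 2 molecules are known for unrelated targets. LY-364947 occupies the kinase pocket of the transforming growth factor beta (TGF-beta) type I receptor, encoded by Tgfbr1. That receptor forms a complex with the type II receptor, Tgfbr2, when a TGF-beta ligand binds, and it phosphorylates Smad2 and Smad3, which join Smad4 and act on genes for collagens, other matrix proteins and contractile proteins. Carbidopa blocks aromatic L-amino acid decarboxylase, encoded by Ddc, the vitamin B6-dependent enzyme that makes dopamine and serotonin, and it is given with levodopa in Parkinson's disease. It has also been described as a ligand of the aryl hydrocarbon receptor, a sensor of foreign chemicals that switches on Cyp1a1. Fibroblasts secrete most of the collagen of connective tissue and respond to TGF-beta by making more matrix and by taking on contractile features.

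Reads counted on genes numbered 19991929 and 20504338 in the carbidopa libraries, 17341994 and 17960556 in the LY-364947 libraries, and 15039566 to 17635923 in the other 4. Levels below are in CPM, counts scaled to an equal library total and for library composition but not for gene length, and they are given in the order replicate 1 and replicate 2. The 14 fibroblast markers summed to 7014 and 7184 CPM with carbidopa and 8943 and 8133 CPM with LY-364947. Most of that gap came from 1 marker, Col1a1, at 688 and 666 CPM with carbidopa and 2232 and 1697 CPM with LY-364947. Of 16 hepatocyte markers only Trf (transferrin) passed the filter on low counts. Albumin (Alb) had 5 and 8 reads with carbidopa and 8 and 10 with LY-364947, beside 2 and 0 in untreated MEFs. Hnf4a, a transcription factor of hepatocytes, had 6 and 7 reads with carbidopa and 10 and 9 with LY-364947. In untreated MEFs the fibroblast list summed to 16992.7 and 17281.5 CPM, and Hnf4a had 1 and 2 reads. Reads of Alb and Hnf4a were therefore few in either treatment. Fibroblast markers were still abundant in both, though below their untreated sums. For the treated cells the paper also reports raised Alb and Hnf4a by qRT-PCR, and staining for fat and glycogen. It further describes an epithelial-like shape and clustering near hepatic progenitor-like cells. That evidence was not examined here, so the label as such was not tested.

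A difference between the compounds passed an adjusted p of 0.05 for 2 genes alone (edgeR's quasi-likelihood test with Benjamini-Hochberg adjustment), 0.0132% of the 15154 genes tested, and both were higher with LY-364947. Col1a1, which encodes the alpha 1 chain of type I collagen, the main collagen of skin, bone and tendon, lies on chromosome 11 at 94936224 to 94953042 of mm10. Its level was 688 and 666 CPM with carbidopa and 2232 and 1697 CPM with LY-364947. The 2 carbidopa libraries lay close together and both LY-364947 libraries stood above them, with LY-364947 1 the higher. The fitted difference was 1.54 on the log2 scale (standard error (SE) 0.13, 95% interval 1.26 to 1.82, 2.90-fold, adjusted p = 0.00204, n = 2 libraries a group). Untreated MEFs held 4076 and 3960.4 CPM and CHIR-99021 1387 and 1386 CPM, so carbidopa had the lowest level of the 4 groups and LY-364947 lay between CHIR-99021 and untreated cells.

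Actn4, which encodes alpha-actinin-4, a protein that crosslinks actin filaments, lies on chromosome 7 at 28893248 to 28962340 of mm10. It was at 149 and 177 CPM with carbidopa and 433 and 448 CPM with LY-364947. The groups did not overlap, and the gap between them was wider than the gap within either. The difference was 1.43 (SE 0.11, 95% interval 1.19 to 1.68, 2.70-fold, adjusted p = 0.00199, edgeR). With CHIR-99021 Actn4 was at 411 and 371 CPM and in untreated MEFs at 961 and 943 CPM, which again left carbidopa as the lowest group. Both calls were lost when the LY-364947 and carbidopa libraries were fitted alone (adjusted p = 0.112 for each), with the differences at 1.54 and 1.44 for Col1a1 and Actn4. The partner chain of type I collagen, Col1a2, was at 975 and 985 CPM with carbidopa and 1072 and 1014 with LY-364947 (log2 difference 0.09, 95% interval -0.12 to 0.30), and the related Actn1 was at 248 and 265 CPM with carbidopa and 338 and 275 with LY-364947 (log2 difference 0.26, 95% interval -0.01 to 0.52), so neither of these relatives, picked after their values were seen, differed by the size seen for Col1a1 or Actn4.

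**Figure D1:**
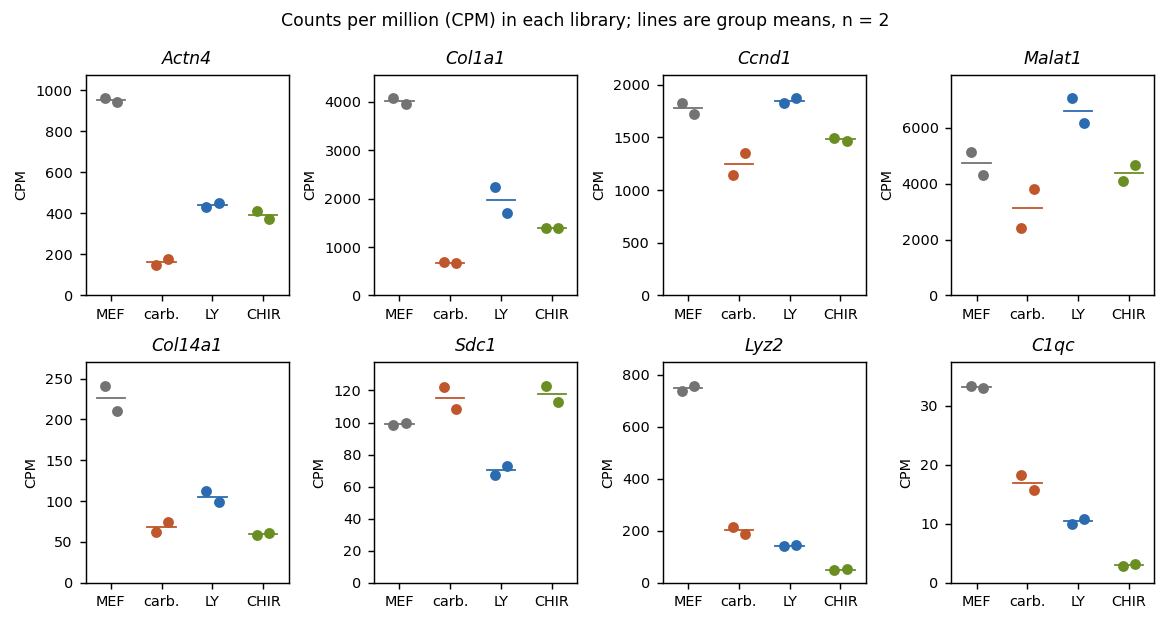
Level of 8 genes in each library in CPM (linear axis from 0), by group: untreated MEFs, carbidopa (carb.), LY-364947 (LY) and CHIR-99021 (CHIR); points are libraries and lines are means of 2. For Actn4 and Col1a1 the carbidopa points are the lowest of all groups, and for Sdc1 the LY-364947 points are the lowest.

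Below these 2 genes the ranking continued without a further call. The next gene by p, Krt1, had an adjusted p of 0.129 (edgeR). An unadjusted p under 0.05 was reached by 726 genes in the higher direction, 4.79% of those tested, and by 641 in the lower direction, 4.23%. Among the 12 top-ranked genes higher with LY-364947 that had at least 100 normalized counts and no overlap between the libraries, Ccnd1, which encodes the G1 cyclin D1, was at 1147 and 1348 CPM with carbidopa and 1829 and 1873 with LY-364947 (log2 difference 0.57, 95% interval 0.34 to 0.80, adjusted p = 0.294). Col14a1, a collagen that associates with fibrils, was at 61.9 and 74.4 CPM with carbidopa and 112 and 98.5 with LY-364947 (log2 difference 0.63, 95% interval 0.35 to 0.90, adjusted p = 0.361). Nid2, a linker protein of basement membranes, was at 59.2 and 69.4 CPM with carbidopa and 86.7 and 91.8 with LY-364947 (log2 difference 0.47, 95% interval 0.24 to 0.71, adjusted p = 0.519). The 3 genes were picked by small p, so intervals that exclude 0 followed from that choice. These intervals are not adjusted for the number of genes, and none of the 3 genes passed the adjusted threshold.

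Rtl1, an imprinted gene derived from a retrotransposon, had 47 and 74 reads with carbidopa and 145 and 114 with LY-364947 (log2 difference 1.32). The non-coding transcript Gm26672 had 42 and 61 reads with carbidopa and 130 and 103 with LY-364947 (log2 difference 1.40). Beside these and the 2 called genes, the other 5 of the 12 were RNAs that are not translated, and they are described with their class further on.

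In the lower direction the first of the 12 was Sdc1, which encodes syndecan-1, a heparan sulfate proteoglycan of the cell surface. It was at 122 and 109 CPM with carbidopa and 67.2 and 73.2 with LY-364947 (log2 difference -0.72, 95% interval -0.95 to -0.48, adjusted p = 0.163, edgeR), and the LY-364947 libraries were also below the 98.6 and 99.4 CPM of untreated MEFs and the 123 and 113 CPM of CHIR-99021. Nupr1, a stress-induced chromatin protein, was at 43.2 and 31.4 CPM with carbidopa and 23.6 and 23.6 with LY-364947 (log2 difference -0.66). Odc1, the first enzyme of polyamine synthesis, was at 84.9 and 72.4 CPM with carbidopa and 55.0 and 55.9 with LY-364947 (log2 difference -0.51). The absence of overlap was a condition for entering the 12, so it adds nothing for either gene. Mt2, a metallothionein that binds zinc and copper, was at 93.8 and 90.2 CPM with carbidopa and 69.3 and 61.6 with LY-364947 (log2 difference -0.49). The calcium-binding S100a16 was at 48.3 and 38.5 CPM with carbidopa and 29.7 and 30.2 with LY-364947 (log2 difference -0.54), and Ube2ql1, a ubiquitin-conjugating enzyme, was at 32.2 and 30.7 CPM with carbidopa and 22.3 and 19.5 with LY-364947 (log2 difference -0.59). None of these passed the adjustment. Gm29216, annotated as a pseudogene whose reads may be shared with a near-identical copy, was at 1937 and 1639 CPM with carbidopa and 925 and 1138 with LY-364947 and is uncertain for that reason. The remaining 5 were the macrophage genes C1qc, C1qb and Lyz2, the chemokine Ccl7 and the keratin Krt10, which are taken up with their groups.

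Across all genes tested the median absolute difference was 0.18 on the log2 scale, and the fitted value lay past 2-fold for 521 genes, 376 of them higher. Most of those genes had few reads: among the 10399 genes with at least 100 normalized counts only 14 were past 2-fold and the median absolute difference was 0.14. A missing call does not show that the compounds act alike, so the intervals were counted. The 95% interval lay wholly within 2-fold for 11744 of 15058 genes (78.0%) and within 1.5-fold for 7804 (51.8%). For the more abundant genes it lay within 2-fold for 10148 of 10398 (97.6%). The other 96 genes tested had no interval because all libraries of a group held no read. The intervals assume that the 4 groups share 1 spread for each gene. The carbidopa replicates were farther apart than the others (median absolute log2 difference 0.237, against 0.0865 to 0.119). The intervals may therefore be too narrow for this contrast. Under that assumption, a 2-fold difference was outside the interval of nearly every abundant gene at 2 libraries a group. Differences of 1.5-fold were not shut out for a large share.

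**Figure D2:**
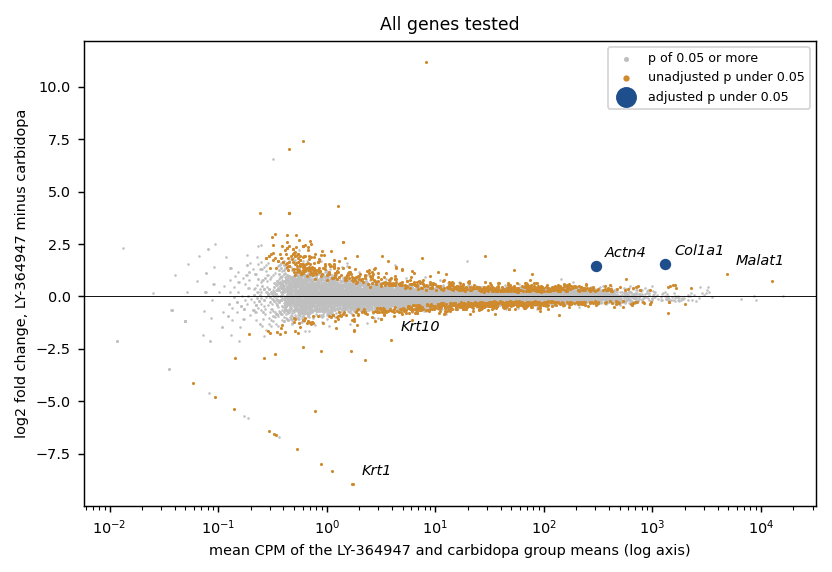
Fitted log2 difference (LY-364947 minus carbidopa, vertical axis) against mean level in CPM (log axis) for the genes tested; grey points have p of 0.05 or more, orange points an unadjusted p under 0.05 and blue points an adjusted p under 0.05. Actn4 and Col1a1 stand apart among abundant genes, and the largest fitted values are at low counts, where a group without reads (Krt1) has a fitted value that depends on the model's prior and is no bound.

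The spread between replicates was as wide as the difference between the treatments. The mean distance between libraries (Euclidean, log2 CPM over the genes tested) was 59.9 between the treatments and 55.4 within them, a ratio of 1.08. A permutation of 2 against 2 libraries cannot go below p = 0.333, so no test was made. The carbidopa replicates were 63.4 apart and the LY-364947 replicates 47.4. Carbidopa 1 was the library that stood apart, at 76.8 and 66.9 from the 2 LY-364947 libraries, whereas carbidopa 2 was at 50.2 and 45.6 from them. Carbidopa 2 was thus closer to each LY-364947 library than to its own replicate.

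The same order appeared gene by gene among the 10399 abundant genes. The median absolute log2 difference was 0.237 between the carbidopa replicates and 0.105 between the LY-364947 replicates. It was 0.281 and 0.238 from LY-364947 1 and 2 to carbidopa 1, and 0.0908 and 0.0857 to carbidopa 2. The carbidopa pair held 86 genes past 2-fold and the LY-364947 pair 8. No pair of replicates agreed within sampling noise (chi-square over its degrees of freedom from 4.57 for the MEF pair to 38.2 for the carbidopa pair), so each was kept as a library of its own. When carbidopa 2 was left out, 3816 genes were called, 1953 higher and 1863 lower, and the treatment then rested on carbidopa 1 alone, assumed to vary like the other groups. Without carbidopa 1 the calls were Actn4, Col1a1 and Krt14.

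**Figure D3:**
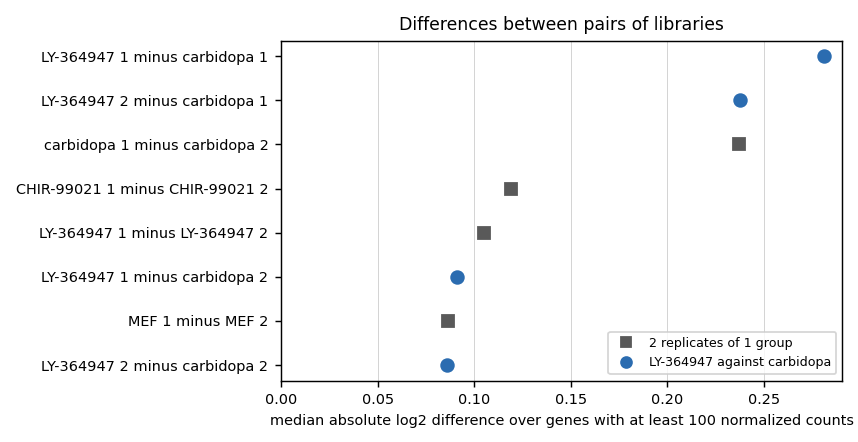
Median absolute log2 difference between pairs of libraries over 10399 genes with at least 100 normalized counts (horizontal axis from 0); grey squares are replicate pairs of a group and blue circles pair an LY-364947 with a carbidopa library. The 2 pairs with carbidopa 2 lie beside the tightest replicate pairs, and the 2 pairs with carbidopa 1 lie at or beyond the carbidopa pair.

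The genes farthest apart between the carbidopa replicates included Nfib, a nuclear factor I transcription factor, at 38.3 CPM in carbidopa 1 and 167 in carbidopa 2, with 200.1 and 169 CPM in the LY-364947 libraries. Pde2a, a phosphodiesterase of cyclic nucleotides, was at 3.15 CPM in carbidopa 1 and 11.6 in carbidopa 2 and at 11.3 and 11.6 CPM with LY-364947. In both, carbidopa 2 resembled the LY-364947 libraries and carbidopa 1 was low. Pcdhgc4, a clustered protocadherin, showed the opposite, with 263 CPM in carbidopa 1 and 93.0 in carbidopa 2, and 81.4 and 113 CPM with LY-364947. Serpinc1, which encodes antithrombin, was at 6.59 CPM in carbidopa 1 and 2.24 in carbidopa 2. The predicted genes Gm45837, Gm44170 and Llph-ps2 were high in carbidopa 1, and Gm2026, Gm42778 and the signal recognition particle RNA copy Rn7s2 were low in it (0 CPM in carbidopa 1 and 18.3 in carbidopa 2). Between the LY-364947 replicates, Pde7b, another phosphodiesterase, was at 41.3 and 16.0 CPM and Gm14288 at 13.9 and 2.45 CPM. The gene 1700047I17Rik2 had 583 and 0 reads with LY-364947 and none with carbidopa, so its high fitted value came from 1 library. Gm20721, 2210418O10Rik and Gm20425 were the 3 lowest in LY-364947 1.

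Carbidopa 1 differed from carbidopa 2 along transcript length. When the abundant genes were ordered by their longest transcript and cut into 5 equal groups, carbidopa 1 minus carbidopa 2 had a median of 0.35 for the shortest group (294 to 2143 bases) and -0.35 for the longest (5611 to 123179 bases), with 0.17, 0.03 and -0.11 between. The difference between the treatments ran the other way, from -0.22 in the shortest group to 0.20 in the longest. Set against carbidopa 2 alone, LY-364947 ran from -0.03 to 0.03, and the LY-364947 replicates differed by -0.07 to 0.05. Over 5 groups by GC content, lowest to highest, the treatment difference went from 0.03 to -0.11. The replicate differences (1 minus 2) changed more, from -0.06 to 0.21 for carbidopa and from 0.12 to -0.12 for LY-364947. Against carbidopa 2 alone, LY-364947 was at 0.00 in both the lowest and the highest group. A list of genes with short or long transcripts may therefore move with carbidopa 1, although not every such list did. For this reason the median of each list is also given against carbidopa 1 and carbidopa 2 separately. Cell type markers and lists drawn up after seeing values are left out of this, except the macrophage markers. The part of transcript length in the list values was not tested.

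**Figure D4:**
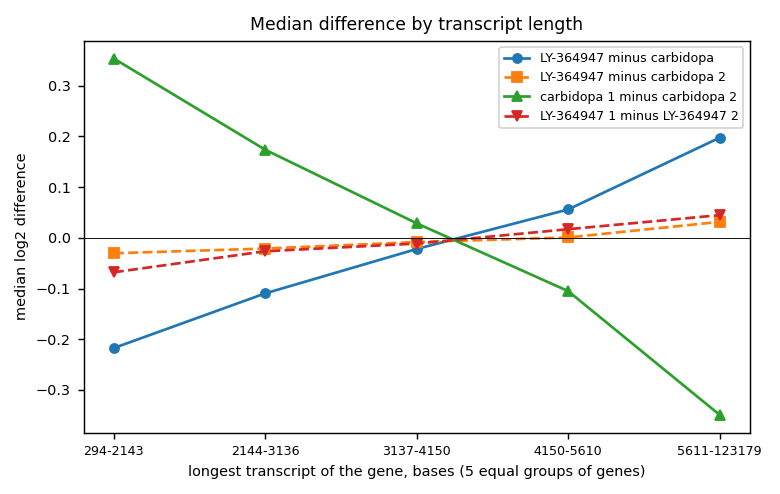
Median log2 difference (vertical axis) in 5 equal groups of the abundant genes by the length of the longest transcript in bases (horizontal axis), for LY-364947 minus carbidopa, LY-364947 minus carbidopa 2, and the 2 replicate differences. Carbidopa 1 minus carbidopa 2 falls from 0.35 to -0.35 while the treatment difference climbs from -0.22 to 0.20, and the other 2 lines stay within 0.07 of 0.

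Over all genes tested, 2911 (19.2%) were higher in both LY-364947 libraries than in both carbidopa libraries and 2802 (18.5%) were lower, with a median difference of -0.01, and the counts for each group of genes read against those shares. In what follows, "apart" marks a gene whose LY-364947 and carbidopa libraries did not overlap, and a list's median is given on the log2 scale. Apart from Col1a1 and Actn4 no member of a list passed the adjusted threshold. The smallest adjusted p among the other members was the 0.129 of Krt1 (edgeR), so the intervals printed below, each for 1 gene without adjustment, describe the ranking within a list and are no calls.

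Neither the genes of the compounds' targets nor their partners passed the threshold. Tgfbr1, the receptor that LY-364947 inhibits, was at 42.8 and 53.3 CPM with carbidopa and 58.4 and 50.8 with LY-364947 (log2 difference 0.18, 95% interval -0.15 to 0.52), and Tgfbr2 was at 213 and 241 CPM with carbidopa and 241 and 228 with LY-364947 (0.05, -0.17 to 0.27). The libraries overlapped for both receptors. Ddc, the target of carbidopa, was near the floor of detection, with 34 and 26 reads with carbidopa and 23 and 27 with LY-364947. Of the 20 TGF-beta ligands, receptors, binding proteins and Smads, 8 were apart and higher with LY-364947, 1 was apart and lower, and the median was 0.15 (0.18 against carbidopa 1 and 0.06 against carbidopa 2). Tgfb2, a ligand, was at 82.9 and 90.2 CPM with carbidopa and 114 and 104 with LY-364947 (log2 difference 0.33, 95% interval 0.09 to 0.57). Smad4, the common Smad, was at 54.0 and 47.1 CPM with carbidopa and 58.9 and 60.7 with LY-364947 (log2 difference 0.24, 95% interval 0.01 to 0.47). Ltbp2, a latent TGF-beta binding protein family member, was at 28.3 and 33.2 CPM with carbidopa and 35.1 and 41.6 with LY-364947 (log2 difference 0.32, 95% interval 0.01 to 0.63). These genes were picked for the smallest p of the list, a choice that favours libraries that do not overlap. All 20 members had intervals within 2-fold.

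Genes known to respond to TGF-beta showed no common direction: of 23, 7 were apart and higher, 7 apart and lower, and the median was -0.01 (0.02 against carbidopa 1 and 0.00 against carbidopa 2). Lox, which crosslinks collagen, was at 808 and 909 CPM with carbidopa and 1085 and 1005 with LY-364947 (log2 difference 0.28, 95% interval 0.05 to 0.52), and the integrin subunit Itgav was at 403 and 368 CPM with carbidopa and 492 and 439 with LY-364947 (log2 difference 0.27, 95% interval 0.03 to 0.51). Spp1, the secreted phosphoprotein osteopontin, went the other way, at 192 and 155 CPM with carbidopa and 122 and 139 with LY-364947 (log2 difference -0.41, 95% interval -0.71 to -0.11). These 3 had the smallest p of the list and differed in sign. Of the 18 bone morphogenetic protein (BMP) and Id genes, 0 were apart and higher and 5 apart and lower (median -0.04, -0.09 against carbidopa 1 and 0.00 against carbidopa 2). Grem1, a secreted BMP antagonist, was at 94.8 and 127 CPM with carbidopa and 93.6 and 83.7 with LY-364947, the receptor Bmpr2 was at 208 and 277 CPM with carbidopa and 348 and 276 with LY-364947, and the ligand Bmp7 was at 3.62 and 3.83 CPM with carbidopa and 2.41 and 2.77 with LY-364947.

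Collagens leaned toward LY-364947 in both comparisons with single carbidopa libraries. Of 10 fibrillar collagens tested, 6 were apart and higher and 0 apart and lower, a median of 0.16 (0.14 against carbidopa 1 and 0.23 against carbidopa 2). Carbidopa cells summed to 3406 and 3285 CPM of these collagens, LY-364947 cells to 5216 and 4707 CPM, and untreated MEFs to 12996 and 13059.9 CPM. Without Col1a1, the called gene, the sums were 2718 and 2619 CPM with carbidopa and 2984 and 3010.2 CPM with LY-364947, so most of the gap came from that gene. Col3a1, which forms fibrils with type I collagen, was at 597 and 551 CPM with carbidopa and 753 and 745 with LY-364947 (log2 difference 0.38, 95% interval 0.17 to 0.60). Col11a1, a minor fibril component, was at 9.79 and 11.3 CPM with carbidopa and 12.5 and 13.8 with LY-364947 (log2 difference 0.32, 95% interval 0.04 to 0.60). Col3a1, unlike Col1a1, differed by far less than 2-fold. The 15 non-fibrillar collagens had 6 apart and higher, 0 apart and lower, and a median of 0.15 (0.20 against carbidopa 1 and 0.12 against carbidopa 2). The fitted difference was positive for 10 of them and negative for 5. They summed to 2649 and 3258 CPM with carbidopa and 3697 and 3603 with LY-364947. Besides Col14a1, Col12a1 was at 982 and 1653 CPM with carbidopa and 1866 and 1924 with LY-364947 and the basement membrane chain Col4a2 at 334 and 292 CPM with carbidopa and 435 and 342 with LY-364947. Much of the gap between the sums came from Col12a1. For Col12a1 the carbidopa replicates were farther from each other than carbidopa 2 was from either LY-364947 library.

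Small leucine-rich proteoglycans, which bind collagen fibrils, had 6 of 10 apart and higher, 0 apart and lower, and a median of 0.23 (0.33 against carbidopa 1 and 0.18 against carbidopa 2). Bgn (biglycan) was at 378 and 449 CPM with carbidopa and 547 and 520.2 with LY-364947 (log2 difference 0.37, 95% interval 0.10 to 0.63), far below the 9201 and 9974 CPM of untreated MEFs in both treatments. Omd (osteomodulin) had 14 and 19 reads with carbidopa and 32 and 26 with LY-364947, and Podn (podocan) was at 17.5 and 17.9 CPM with carbidopa and 19.4 and 21.6 with LY-364947. The enzymes that process and crosslink collagen had 5 of 21 apart and higher and 1 lower, close to the shares over all genes for the higher direction, with a median of 0.06 (0.02 against carbidopa 1 and 0.05 against carbidopa 2). Among them the lysyl oxidase relative Loxl4 was at 59.9 and 66.8 CPM with carbidopa and 73.7 and 93.0 with LY-364947 (log2 difference 0.40, 95% interval 0.12 to 0.67) and the prolyl hydroxylase subunit P4ha3 at 5.65 and 6.53 CPM with carbidopa and 7.52 and 7.35 with LY-364947. Elastic fibre and matricellular genes had 9 of 23 apart and higher and 3 lower (median 0.09, 0.13 against carbidopa 1 and 0.06 against carbidopa 2). Fbn2, a fibrillin, was at 138 and 200.2 CPM with carbidopa and 219 and 237 with LY-364947 (log2 difference 0.43, 95% interval 0.10 to 0.76). Wisp2 (Ccn5), a matricellular gene of fibroblasts, had 6 and 4 reads with carbidopa and 11 and 12 with LY-364947 (log2 difference 1.40, 95% interval 0.41 to 2.39), beside 220 and 260 in untreated MEFs. The paper's qRT-PCR at 10 µM had the opposite order, with Wisp2 lower with LY-364947 than with carbidopa. That disagreement was not examined here.

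Integrins and laminins, the cell's receptors for matrix and the ligands they bind in basement membranes, were positive for 17 of 18 genes, with 6 apart and higher, 0 lower, and a median of 0.25. That median was 0.31 against carbidopa 1 and 0.06 against carbidopa 2, and the carbidopa replicates differed by -0.20 (replicate 1 minus 2) over the same genes, whose median transcript length was 5798 bases. Itga6, a laminin receptor subunit, was at 53.8 and 42.3 CPM with carbidopa and 60.6 and 62.7 with LY-364947 (log2 difference 0.36, 95% interval 0.08 to 0.64). Lamc1, the gamma 1 chain of most laminins, was at 254 and 282 CPM with carbidopa and 320.5 and 323 with LY-364947 (log2 difference 0.26, 95% interval 0.05 to 0.48). Both were picked by small p within the list, which favours libraries that do not overlap. Metalloproteases and their inhibitors had 1 of 16 apart and higher and 6 lower (median -0.06, -0.14 against carbidopa 1 and -0.00 against carbidopa 2). Mmp12, the macrophage elastase, was at 21.5 and 25.1 CPM with carbidopa and 18.0 and 17.9 with LY-364947, the stromelysin Mmp3 at 24.9 and 25.5 CPM with carbidopa and 22.3 and 18.0 with LY-364947, and the gelatinase Mmp9 at 21.2 and 21.1 CPM with carbidopa and 16.1 and 16.0 with LY-364947. All 3 were picked for the smallest p of the list, so their lack of overlap says little about the list.

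Contractile genes of smooth muscle, which mark the myofibroblast state, had 3 of 14 apart and higher and 2 lower, with medians of -0.18 against carbidopa 1 and 0.00 against carbidopa 2. Acta2, the smooth muscle actin and the usual myofibroblast marker, was at 90.1 and 91.3 CPM with carbidopa and 114 and 93.4 with LY-364947 (log2 difference 0.19, 95% interval -0.16 to 0.55), against 2161 and 1969.5 CPM in untreated MEFs, and the interval of the difference between the compounds included 0. Tagln (transgelin) was at 315 and 236 CPM with carbidopa and 187 and 233 with LY-364947 (log2 difference -0.39, 95% interval -0.73 to -0.06), Des (desmin) at 11.2 and 7.88 CPM with carbidopa and 6.34 and 7.88 with LY-364947 and Synpo2 at 4.05 and 5.78 CPM with carbidopa and 7.18 and 6.28 with LY-364947. For Tagln, carbidopa 2 and LY-364947 2 were within 4 CPM of each other. In the actin cytoskeleton list, 4 of 24 were apart and higher and 7 lower, and the median of 0.05 was 0.08 against carbidopa 1 and -0.06 against carbidopa 2, so the list had no common direction. Cfl1 (cofilin, which severs filaments) was at 869 and 627 CPM with carbidopa and 534 and 595 with LY-364947 and the actin-bundling Palld (palladin) at 96.1 and 101 CPM with carbidopa and 111 and 122 with LY-364947. Targets of the mechanosensitive factors YAP and TEAD had 4 of 16 apart and higher and 3 lower (median 0.01, 0.00 against carbidopa 1 and 0.05 against carbidopa 2), with Ankrd1 at 37.8 and 27.2 CPM with carbidopa and 21.6 and 22.5 with LY-364947 (log2 difference -0.56, 95% interval -0.93 to -0.19) and Ptpn14, a negative regulator of YAP, at 160.1 and 239 CPM with carbidopa and 269 and 266 with LY-364947.

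Of 15 Wnt targets and feedback genes, 2 were apart and higher and 2 lower (median 0.10, 0.17 against carbidopa 1 and 0.02 against carbidopa 2). Dkk1 had 1 and 2 reads with carbidopa and 0 and 0 with LY-364947, so it has no fold here. With Dkk1 left out of the list, the median of the fitted differences was 0.14. Ccnd1 was the higher one with the smallest p, and Myc, the proliferation factor, was lower, at 22.8 and 19.8 CPM with carbidopa and 15.2 and 16.1 with LY-364947 (log2 difference -0.44, 95% interval -0.72 to -0.16). The genes around carbidopa's target, for monoamine metabolism and vitamin B6, had 1 of 8 apart and higher and 1 lower, with a median of -0.06 (-0.21 against carbidopa 1 and 0.01 against carbidopa 2). Got1, a B6-dependent aspartate aminotransferase, was at 60.5 and 50.1 CPM with carbidopa and 42.4 and 44.4 with LY-364947 (log2 difference -0.35, 95% interval -0.60 to -0.10). The monoamine oxidase Maob was at 11.1 and 10.5 CPM with carbidopa and 13.0 and 11.1 with LY-364947, with an interval that included 0. The aryl hydrocarbon receptor list had 3 of 8 apart and higher with LY-364947 and 0 lower, and its median of 0.09 was 0.15 against carbidopa 1 and -0.01 against carbidopa 2. Cyp1a1, its usual reporter, had 13 and 3 reads with carbidopa and 10 and 9 with LY-364947 (log2 difference 0.46, 95% interval -1.33 to 2.25), so no difference was detectable at this depth. Cyp1b1 was at 75.6 and 77.6 CPM with carbidopa and 105 and 90.3 with LY-364947 (log2 difference 0.35, 95% interval 0.10 to 0.61), and the receptor Ahr and its partner Arnt were at 5.79 and 7.56 and 97.3 and 109 CPM with carbidopa and 8.36 and 8.63 and 118 and 111 CPM with LY-364947.

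Genes of the ATF4 response leaned lower with LY-364947, although none passed the threshold. Cells use that response when amino acids run short or protein folding is strained. Of 13 genes, 9 were apart and lower, beside 18.5% of all genes, and 0 higher. Both LY-364947 libraries were below carbidopa 2 for 11 of the 13, beside 4640 of the 15154 genes tested. The median was -0.29 (-0.40 against carbidopa 1 and -0.18 against carbidopa 2). Phgdh, the first enzyme of serine synthesis, was at 117 and 108 CPM with carbidopa and 76.3 and 90.2 with LY-364947 (log2 difference -0.43, 95% interval -0.69 to -0.16). Ddit3, the stress factor CHOP, was at 161 and 100.4 CPM with carbidopa and 83.1 and 92.4 with LY-364947 (log2 difference -0.57, 95% interval -1.01 to -0.13). Slc3a2, the heavy chain of amino acid exchangers, was at 135 and 107 CPM with carbidopa and 89.6 and 101 with LY-364947 (log2 difference -0.35, 95% interval -0.63 to -0.06). For each of the 3, carbidopa 1 was the highest of the 4 libraries. The NRF2 antioxidant list was negative for 13 of 13 genes with a median of -0.12 (-0.10 against carbidopa 1 and -0.06 against carbidopa 2), and 4 were apart and lower. Hmox1, the heme oxygenase, was at 289.6 and 223 CPM with carbidopa and 192 and 205 with LY-364947, Sqstm1, an autophagy receptor, at 607 and 476 CPM with carbidopa and 439 and 495 with LY-364947, and the glutathione reductase Gsr at 48.2 and 40.1 CPM with carbidopa and 40.6 and 36.8 with LY-364947. Targets of p53 had 2 of 12 apart and higher and 1 lower, and their median had opposite signs for the 2 carbidopa libraries, at -0.18 against carbidopa 1 and 0.11 against carbidopa 2. Zmat3 was at 375 and 432 CPM with carbidopa and 508 and 440.0 with LY-364947, Eda2r at 183 and 216 CPM with carbidopa and 254 and 215 with LY-364947 and Trp53inp1 at 699.7 and 742 CPM with carbidopa and 929 and 784 with LY-364947.

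Mitotic genes had a similar median against each carbidopa library, 0.18 against carbidopa 1 and 0.17 against carbidopa 2. Of 17, 8 were apart and higher and 0 lower. Mki67, the antigen of cycling cells, was at 31.3 and 44.3 CPM with carbidopa and 61.0 and 49.7 with LY-364947 (log2 difference 0.55, 95% interval 0.20 to 0.90). Top2a, the topoisomerase that untangles chromosomes, was at 31.5 and 35.8 CPM with carbidopa and 41.1 and 40.8 with LY-364947 (log2 difference 0.28, 95% interval 0.01 to 0.56), and the kinetochore motor Cenpe at 9.84 and 11.8 CPM with carbidopa and 13.1 and 13.1 with LY-364947. The 3 genes were picked for the smallest p of the list, a choice that favours libraries that do not overlap. CHIR-99021 was lower than either treatment for them, with Mki67 at 14.9 and 15.5 CPM. DNA replication genes did not follow, with 4 of 17 apart and higher, 4 lower and a median of 0.06 (0.08 against carbidopa 1 and 0.01 against carbidopa 2). Pcna, the sliding clamp, was at 88.1 and 78.7 CPM with carbidopa and 72.7 and 73.8 with LY-364947, the licensing factor Cdt1 at 6.03 and 6.95 CPM with carbidopa and 4.94 and 5.38 with LY-364947 and the ribonucleotide reductase subunit Rrm2 at 30.8 and 32.6 CPM with carbidopa and 40.8 and 31.8 with LY-364947.

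The medians of the chemokine, interferon and immediate early lists were negative, and no member passed the threshold. Of 12 chemokines and cytokines tested, 7 were apart and lower and 2 higher, with a median of -0.44 (-0.35 against carbidopa 1 and -0.19 against carbidopa 2). The fitted median lay outside the other 2, which are of log2 CPM. The monocyte attractant Ccl7 was at 125 and 93.6 CPM with carbidopa and 74.8 and 73.6 with LY-364947 (log2 difference -0.56, 95% interval -0.85 to -0.26), and its neighbour Ccl2 at 132 and 111 CPM with carbidopa and 94.6 and 92.9 with LY-364947 (log2 difference -0.37, 95% interval -0.66 to -0.09). Cxcl10 had 20 and 19 reads with carbidopa and 10 and 10 with LY-364947. Interferon-stimulated genes had 7 of 15 apart and lower and 0 higher, and a median of -0.43, which was -0.73 against carbidopa 1 and -0.16 against carbidopa 2. Over these genes carbidopa 1 exceeded carbidopa 2 by a median of 0.62, more than LY-364947 fell short of carbidopa 2. Usp18, a brake on interferon signalling, was at 6.50 and 4.11 CPM with carbidopa and 3.20 and 3.04 with LY-364947 (log2 difference -0.76, 95% interval -1.33 to -0.20), Ifit3 at 183 and 137 CPM with carbidopa and 121 and 124 with LY-364947 (log2 difference -0.38, 95% interval -0.70 to -0.07), and the antiviral sensor Oas1a had 47 and 30 reads with carbidopa and 17 and 6 with LY-364947. Immediate early genes, which respond within minutes to growth signals, had 7 of 16 apart and lower and 2 higher (median -0.22, -0.42 against carbidopa 1 and -0.04 against carbidopa 2). After Myc, Fosl1 was at 23.9 and 17.5 CPM with carbidopa and 15.0 and 13.8 with LY-364947 (log2 difference -0.52, 95% interval -0.88 to -0.16) and Jund at 75.0 and 41.2 CPM with carbidopa and 35.8 and 40.2 with LY-364947, where carbidopa 2 was much nearer to the LY-364947 libraries than to carbidopa 1.

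Among the metabolic groups, glycolytic and hypoxia genes had 8 of 17 apart and lower, beside 18.5% of all genes, and 1 higher, at a median of -0.12 (-0.23 against carbidopa 1 and -0.07 against carbidopa 2). Pkm, the pyruvate kinase, was at 1033 and 831 CPM with carbidopa and 717 and 789 with LY-364947 (log2 difference -0.31, 95% interval -0.59 to -0.02), with Gapdh at 1689.6 and 1436 CPM with carbidopa and 1281 and 1359 with LY-364947 and Aldoa at 446 and 355 CPM with carbidopa and 321 and 343 with LY-364947. Cholesterol synthesis genes had 4 of 17 apart and higher and 2 lower (median 0.00, 0.02 against carbidopa 1 and 0.02 against carbidopa 2). The synthetic enzymes Fdps and Fdft1 were at 118 and 129 and 237 and 244 CPM with LY-364947 against 168 and 132 and 282 and 259 with carbidopa. Adipocyte genes had 4 of 10 apart and lower and 0 higher (median -0.15, -0.27 against carbidopa 1 and -0.09 against carbidopa 2). Cebpb, a transcription factor of early fat cell formation, was at 20.3 and 11.0 CPM with carbidopa and 9.77 and 8.36 with LY-364947 (log2 difference -0.79, 95% interval -1.36 to -0.21), the lipid droplet protein Plin2 at 127 and 103 CPM with carbidopa and 88.7 and 98.8 with LY-364947 and the fatty acid synthase Fasn at 224 and 343 CPM with carbidopa and 333 and 364 with LY-364947. The retinoic acid list had 2 of 13 apart and higher and 3 lower, and its median of -0.13 was -0.21 against carbidopa 1 and -0.01 against carbidopa 2. Rarg, a retinoic acid receptor, was at 62.5 and 69.3 CPM with carbidopa and 124 and 83.6 with LY-364947 (log2 difference 0.66, 95% interval 0.23 to 1.08), and the binding protein Crabp1 at 94.7 and 63.0 CPM with carbidopa and 51.2 and 58.1 with LY-364947 (log2 difference -0.53, 95% interval -0.93 to -0.12). Lysosome and autophagy genes had 5 of 17 apart and lower and 0 higher, and their median of -0.13 was -0.21 against carbidopa 1 and -0.04 against carbidopa 2, with the cathepsins Ctsb and Ctsk at 2500.3 and 2429 and 233 and 189.5 CPM with carbidopa and 2182 and 2143 and 178 and 185 CPM with LY-364947, and Gpnmb at 581 and 635 CPM with carbidopa and 546 and 522 with LY-364947.

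Ribosomal protein genes showed how far a list's direction rested on 1 library. All 35 of 35 had a negative fitted difference, with a median of -0.25, and 11 were apart and lower. The median was -0.46 against carbidopa 1 and -0.03 against carbidopa 2, and carbidopa 1 exceeded carbidopa 2 by 0.43. Rps6 was at 849.7 and 607 CPM with carbidopa and 555 and 594 with LY-364947 (log2 difference -0.34, 95% interval -0.66 to -0.03), Rps2 at 1246 and 875 CPM with carbidopa and 831 and 832 with LY-364947 and Rpl18 at 235 and 163 CPM with carbidopa and 144 and 162 with LY-364947. In each, carbidopa 1 was the 1 library that stood out. The median transcript length of these genes was 1094 bases, within the shortest length group. Of the mitochondrially encoded list 4 members were tested and the other 9 were not analysed here. Their libraries overlapped except for mt-Nd3, at 110.2 and 134 CPM with carbidopa and 135 and 145 with LY-364947. mt-Cytb was at 14433 and 17589 CPM with carbidopa and 18049 and 14209 with LY-364947 and Gm10925, annotated as a pseudogene on chromosome 1 and matched to the list through the name mt-Atp6, at 7756 and 9443 CPM with carbidopa and 10145 and 7287 with LY-364947, with differences of 0.01 and 0.02 whose sign depended on the libraries used.

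**Figure D5:**
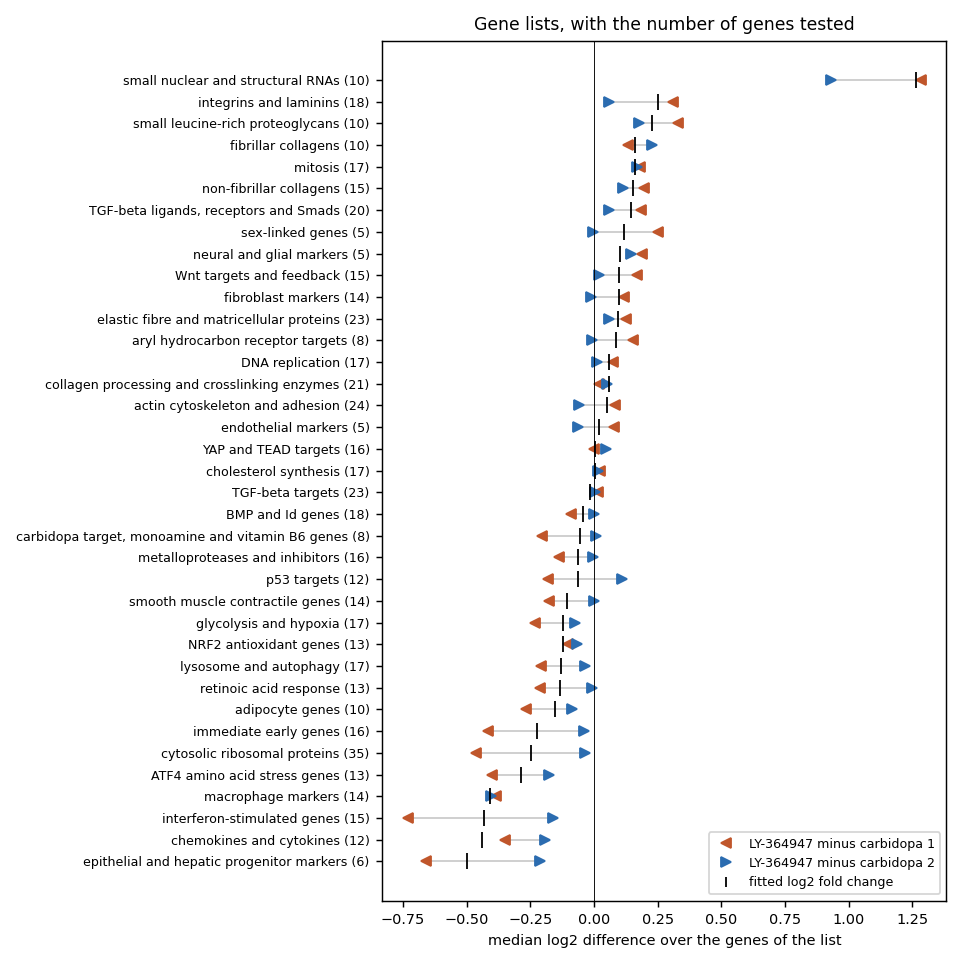
Median log2 difference (horizontal axis) over the tested genes of each list (number in brackets): the fitted value (black bar), LY-364947 minus carbidopa 1 (orange) and LY-364947 minus carbidopa 2 (blue). Lists with under 5 genes tested and the epidermal keratinocyte list are left out. The macrophage and mitosis lists keep their direction against both carbidopa libraries, whereas the ribosomal protein list goes from -0.46 to -0.03. The structural RNA and sex-linked lists were drawn up after the values had been seen.

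Among the markers of other cell types, those of macrophages, which MEF cultures can carry, leaned lower with LY-364947, and none passed the threshold. All 14 of the 14 tested markers had a negative difference. Of these, 10 were apart and lower, beside 18.5% of all genes, and 0 higher. Both LY-364947 libraries were below carbidopa 2 for all 14, beside 4640 of the 15154 genes tested. The median was -0.41 (-0.38 against carbidopa 1 and -0.40 against carbidopa 2), so it did not hang on carbidopa 1. Lyz2, the macrophage lysozyme, was at 215 and 187 CPM with carbidopa and 141 and 144 with LY-364947 (log2 difference -0.50, 95% interval -0.73 to -0.26, adjusted p = 0.519). C1qc and C1qb, chains of complement C1q, were at 18.3 and 15.6 and 24.4 and 19.7 CPM with carbidopa and 9.93 and 10.8 and 15.3 and 14.3 CPM with LY-364947 (log2 differences -0.71 and -0.58). Summed over the list the level was 409 and 389 CPM with carbidopa, 289.7 and 299.7 with LY-364947, 98.1 and 104 with CHIR-99021 and 1309.7 and 1349.5 in untreated MEFs. The 2 untested markers, Aif1 and Cd163, had 0 to 3 reads in every carbidopa and LY-364947 library, and none of the tested ones was at 0. In bulk RNA, fewer macrophages and less RNA per macrophage cannot be told apart. Macrophages also express genes of the chemokine, lysosome and metalloprotease lists, whose medians were -0.44, -0.13 and -0.06, and the part of macrophage RNA in those values was not tested.

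Markers of the epidermis, in a list drawn up after these values had been seen, were read with carbidopa and, for 5 of them, had no read with LY-364947. Krt1, a keratin of differentiating epidermis, had 58 and 91 reads with carbidopa and 0 and 0 with LY-364947. That is at least 20.7-fold lower than the carbidopa mean, against the 3 reads that a count of 0 allows in a library. The bounds that follow are likewise for the carbidopa mean and need not hold for each carbidopa library. Krt5 and Krt14, the keratins of the basal layer, had 16 and 30 and 18 and 78 reads with carbidopa and none with LY-364947, at least 6.39-fold and 13.3-fold lower. Most of the Krt14 reads were in carbidopa 2. Flg (filaggrin) had 49 and 27 and then none, at least 10.6-fold lower. Dmkn had 13 and 16 and none, at least 4.03-fold lower. Untreated MEFs had 0 or 1 read of each of these 5. Krt10, the partner of Krt1, was not absent, with 170 and 102 reads with carbidopa and 35 and 20 with LY-364947 (log2 difference -2.08, 95% interval -2.86 to -1.29). Of the 25 genes listed 11 passed the filter on low counts, and the 5 without a read with LY-364947 passed it through the carbidopa libraries, so no count or median over the list is given. The whole list summed to 4318 and 3264 reads with carbidopa and 2519 and 2768 with LY-364947, of which Perp alone, a gene of many cell types, gave 3191 and 2248 and 2082 and 2219. Krt6a had 53 reads in carbidopa 2 and none in any other library. The source of the keratin reads was not tested.

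Of the other marker lists, simple epithelial and hepatic progenitor markers had 3 of 6 tested apart and lower and 1 higher. Krt19 was at 19.2 and 11.4 CPM with carbidopa and 8.42 and 10.3 with LY-364947 (log2 difference -0.70, 95% interval -1.27 to -0.14), Prom1 had 16 and 18 reads with carbidopa and 10 and 4 with LY-364947, and Krt7 had 2 and 1 reads with carbidopa and 6 and 5 with LY-364947. These summed to 30.4 and 25.2 CPM with carbidopa and 21.4 and 21.7 with LY-364947. Endothelial markers summed to 13.8 and 14.6 and 13.1 and 16.2 CPM, skeletal muscle markers to 4.47 and 3.78 and 3.48 and 3.89 CPM, and neural and glial markers to 10.7 and 12.2 and 12.5 and 12.1 CPM. The endothelial defining genes Pecam1 and Cdh5 had 0 to 7 reads in the 4 libraries. Acta1, the skeletal actin, had 22 and 14 reads with carbidopa and 5 and 4 with LY-364947 (log2 difference -1.75, 95% interval -2.83 to -0.67). None of these cell types had a summed level near that of the fibroblast list.

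Long non-coding RNAs leaned higher with LY-364947, and none passed the threshold. Of 1416 long non-coding genes tested (with the annotation's class of unverified transcripts), 534 (37.7%) were apart and higher and 127 (8.97%) lower, beside 19.2% and 18.5% of all genes, and their median was 0.30 against -0.03 for the 13303 protein-coding genes. Their share of all reads was 1.19% and 1.38% with carbidopa and 1.79% and 1.64% with LY-364947, while over the same genes carbidopa 1 was below carbidopa 2 by a median of 0.29 and LY-364947 1 above LY-364947 2 by 0.15. The 384 pseudogenes tested leaned the other way, with 13.5% apart and higher, 25.5% apart and lower and a median of -0.17. Malat1, an abundant RNA of nuclear speckles, was at 2408 and 3823 CPM with carbidopa and 7056 and 6171 with LY-364947 (log2 difference 1.09, 95% interval 0.66 to 1.51, adjusted p = 0.294). Both LY-364947 libraries stood above all 6 others for Malat1, with untreated MEFs at 5139.7 and 4301 CPM.

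Structural RNAs were also put in a list after their values had been seen, so no count or median over the list is given. Of the 14 listed, 10 were tested. The ribosomal RNA copy Rn18s-rs5 was at 9832 and 9108 CPM with carbidopa and 17828 and 14152 with LY-364947 (log2 difference 0.76, 95% interval 0.47 to 1.04, adjusted p = 0.283). Rpph1, the RNA of ribonuclease P, had 67 and 57 reads with carbidopa and 130 and 124 with LY-364947 (log2 difference 1.26, 95% interval 0.74 to 1.77). Rn7sk, which holds the elongation factor P-TEFb inactive, was at 9.56 and 14.2 CPM with carbidopa and 62.1 and 29.1 with LY-364947 (log2 difference 1.94, 95% interval 1.10 to 2.78), with LY-364947 1 well above LY-364947 2. Xist, the RNA that coats the inactive X chromosome, was at 318 and 290.0 CPM with carbidopa and 402 and 471 with LY-364947 (log2 difference 0.52, 95% interval 0.26 to 0.78, adjusted p = 0.519), with the Y-linked Kdm5d at 22.8 and 28.1 CPM with carbidopa and 30.6 and 28.4 with LY-364947 and Ddx3y at 49.2 and 58.9 CPM with carbidopa and 60.9 and 56.4 with LY-364947. Both kinds were present in every library, so the cultures held cells of both sexes, and the Y-linked genes Kdm5d, Ddx3y, Uty and Eif2s3y had differences from -0.02 to 0.21.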

How the data were processed

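RNA-seq was performed on 8 libraries in 4 groups of 2, grouped by their labels. The authors aligned reads to mm10 with STAR 2.4.2a and counted them with featureCounts; the deposited table holds raw counts per gene. The submitters' notes also name bcl2fastq and DESeq2, and the labels and the methods name different library kits. Of 50578 gene identifiers, 50354 (99.6%) matched GENCODE M21, which gave positions, transcript lengths and gene classes. The 15154 genes passing edgeR's filterByExpr were scaled by TMM and tested with edgeR 4.0.16 (R 4.3.3, quasi-likelihood, group only, all 8 libraries sharing 1 estimate of spread, Benjamini-Hochberg, threshold 0.05). That step was run on simulated data in which all groups had the same spread for each gene. The simulation therefore does not cover a library that stands apart, as carbidopa 1 did. Standard errors and 95% intervals are Wald values on the quasi-likelihood scale. CPM used TMM library sizes, and log2 CPM a prior count of 2. Total counts were 15039566 to 20504338 a library, and limits from reads cover counting error only.

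Named genes were the called ones, the 12 top-ranked in each direction (at least 100 normalized counts, no overlap), up to 3 of each list by p, the compounds' targets, the genes of the study's qRT-PCR and those farthest apart between replicates; others, given to complete a pair or family, were chosen after their values were seen, and some genes the rule named are not reported here. The comparison and the lists were chosen with earlier results of these data known; the keratinocyte, structural RNA and sex-linked lists were added after the values were seen. Of 651 list entries 640 matched, and the other 11 were not analysed here. Alternatives were RLE scaling, DESeq2 1.42.0, other filters, the 4 libraries alone, leaving out each library and the replicate number as a block; a crossed block and protein-coding genes alone were added after seeing the data.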

Additional observations from a re-analysis of the deposited data

How the results depend on the processing

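The 2 calls, Actn4 and Col1a1, were kept by RLE scaling, a minimum of 10 counts in every library and protein-coding genes alone, each with 2 calls. DESeq2 called 16 genes (12 higher, 4 lower), among them Malat1, Ccnd1, Col14a1, Xist, Sdc1, Krt10 and Krt14. Testing without a filter on low counts called 329 (201 higher, 128 lower), and fitting the LY-364947 and carbidopa libraries alone called 0 (0 higher) with 566 genes at an unadjusted p under 0.05; the cause was not tested. Leaving out 1 library gave 2 to 3816 calls (2 to 1953 higher, 0 to 1863 lower): without carbidopa replicate 2 there were 3816, and otherwise 2 or 3. The ratio of distances was 0.888 to 1.52, with 1.52 without carbidopa replicate 2. With the replicate block 2 genes were called, as with the crossed pairing; same-numbered deviations correlated at -0.161, so the numbers were not taken to pair the libraries, and the block changed no call. Among values that were not called, leaving out a library moved Gm10925 from -0.23 to 0.24, mt-Cytb from -0.17 to 0.17, Ddx3y from -0.00687 to 0.25 and Tgfbr2 from -0.0397 to 0.14, and without a filter mt-Cytb was -0.00505. With 2 libraries a group and 1 of them apart, differences under 1.5-fold were within reach of the replicate spread for many genes, and 96 genes without reads in a group had no interval.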
